A study of Mus musculus with 5 samples.

Results

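The MYC and MXD network was followed through its 8 listed genes, Myc, Max, Mxd1, Mxd3, Mxd4, Mxi1, Mnt and Mlx, out of 21878 gene symbols in the table. The genes were taken by symbol, and the set was chosen by its measured levels and fold changes across these same 5 libraries. Their levels and fold changes are therefore a description, and no p-value is given for a member. RNA sequencing was done on RAW264.7, a mouse macrophage-like line. The vector group had 1 library, the LPS group (0.5 mg/mL as labelled) had 2, and the group given both LPS at that dose and arctigenin at 1 μM had 2. LPS, a lipid of bacterial outer membranes, activates macrophages, and arctigenin is a plant lignan. The labels name the line alone as the source of all 5 libraries. The content of the vector treatment is not labelled, nor how long cells were treated or whether replicates came from separate cultures. An effect of the solvent of arctigenin cannot be told apart from that of arctigenin.

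MYC, MXD and MNT proteins share a basic helix-loop-helix leucine zipper and bind DNA as heterodimers with MAX, at the E-box sequence CACGTG and its variants. MYC-MAX pairs recruit coactivators and raise the expression of genes for growth, ribosome making and nucleotide synthesis, while MXD-MAX and MNT-MAX pairs recruit the SIN3 and histone deacetylase corepressor to the same sequence. MLX is a second hub that pairs with MXD1, MXD4, MNT and the glucose-responsive MONDO proteins. In many lineages MYC marks cycling cells and MXD1 marks cells that leave the cycle and differentiate.

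On build NCBIM37 (mm9) the GENCODE gene model of Myc spans bases 61816946 to 61821929 of chromosome 15 (plus strand). Max lies on chromosome 12 from 78038256 to 78063235, Mxd1 on chromosome 6 from 86597038 to 86619153, Mxd3 on chromosome 13 from 55426529 to 55431119 and Mxd4 on chromosome 5 from 34516536 to 34530369, all on the minus strand. On the plus strand, Mxi1 lies on chromosome 19 from 53384996 to 53450300, Mnt on chromosome 11 from 74644422 to 74659227 and Mlx on the same chromosome from 100948591 to 100953521. All 8 are annotated as protein-coding. The Mlx model overlaps Psmc3ip, that of Mxd3 overlaps Prelid1 and that of Mxi1 overlaps Gm10197, and reads of overlapping genes cannot be separated without strand. Psmc3ip, at 2.21 to 8.44 CPM, was low beside Mlx. Prelid1, at 250 to 283 CPM, was abundant, while Mxd3 had 0 to 4 counts. How reads shared by Prelid1 and Mxd3 were assigned was not tested.

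RefSeq promoter windows of GRCm38.p6 were found for 7 of the 8 members, all but Myc. They were 9 windows in all, since Mxi1 has 3 annotated starts. The 250 bases before each start matched NCBIM37 without a difference, at a single place each, and are given here in that build. The E-box CACGTG, which reads the same on both strands, was present in the windows of Mxd4, Mnt and Mlx, and in 6.02% of 32851 windows of this length over all genes. The AP-1 motif TGANTCA, found in 6.75% of all windows, matched in none of the 9. The NF-kB motif GGGRNNYYCC (R for A or G, Y for C or T, N for any base) was searched on the strand of the gene only. Searched so, it was found in 5.00% of all windows and in none of the 9. The window of Mxd1, the member with the largest change, is set beside the 3 with an E-box, in capitals. The windows, 5′ to 3′ on the strand of the gene, are chr6:86619154-86619403 on the minus strand for Mxd1, chr5:34530360-34530609 on the minus strand for Mxd4, chr11:74644176-74644425 on the plus strand for Mnt and chr11:100948354-100948603 on the plus strand for Mlx.
Mxd1: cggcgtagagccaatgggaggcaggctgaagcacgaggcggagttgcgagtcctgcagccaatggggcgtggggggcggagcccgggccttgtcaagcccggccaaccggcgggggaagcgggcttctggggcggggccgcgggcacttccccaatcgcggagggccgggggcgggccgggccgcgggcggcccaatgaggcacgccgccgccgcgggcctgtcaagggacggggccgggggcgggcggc
Mxd4: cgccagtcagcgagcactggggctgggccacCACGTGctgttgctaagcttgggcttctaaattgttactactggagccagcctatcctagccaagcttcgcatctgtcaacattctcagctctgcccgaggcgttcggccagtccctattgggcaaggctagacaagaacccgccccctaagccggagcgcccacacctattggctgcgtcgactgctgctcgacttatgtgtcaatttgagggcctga
Mnt: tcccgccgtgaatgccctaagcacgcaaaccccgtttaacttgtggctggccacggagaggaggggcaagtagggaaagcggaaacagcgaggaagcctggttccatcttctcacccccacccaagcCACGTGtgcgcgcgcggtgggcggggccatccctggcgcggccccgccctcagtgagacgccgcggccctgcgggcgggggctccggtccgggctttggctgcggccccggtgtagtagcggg
Mlx: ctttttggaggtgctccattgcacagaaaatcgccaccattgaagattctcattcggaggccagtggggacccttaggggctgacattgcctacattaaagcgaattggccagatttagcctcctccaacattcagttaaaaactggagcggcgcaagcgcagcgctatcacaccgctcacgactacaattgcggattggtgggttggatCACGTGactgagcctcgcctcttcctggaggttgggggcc
The E-box lay 219 to 214 bases before the start in Mxd4 (-219 to -214), and at -123 to -118 in Mnt and -40 to -35 in Mlx. Mxd4, Mnt and Mlx did not move in the same direction with LPS, as described next, and a match is a description of these letters only.

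The libraries held 19836203 to 21578355 estimated counts each. Levels are given as CPM, counts relative to a library size scaled by the TMM method. Genes were tested by edgeR's quasi-likelihood test in a single fit of all 5 libraries, and a gene was called at a Benjamini-Hochberg adjusted p under 0.05 over 11575 genes tested. With 1 vector library, the spread behind every comparison came from the other 4 libraries, and it may be technical. All 10 macrophage markers listed were detected, with Lyz2 between 1613 and 4358 CPM and Cd68 between 800.2 and 977 CPM. These markers moved both ways. With LPS 5 rose and 3 fell, beside 27.1% of all genes higher and 24.9% lower. With arctigenin against LPS 3 rose and 3 fell, beside 22.8% higher and 22.0% lower. The summed level of the 10 was 8281 CPM in vector, 6127 and 5983 CPM with LPS, and 7453 and 6792 CPM with arctigenin. Of 11 markers of other cell types 3 (Cd3e, Epcam and Ly6g) had 0 counts in all libraries. The summed level of these 11 markers was 3.98 CPM in vector, 166 and 167 CPM with LPS and 91.8 and 111 CPM with arctigenin. S100a8 made up 2.87 CPM of it in vector, 161 and 162 CPM with LPS and 88.0 and 107 CPM with arctigenin. Of the 4 such markers tested 3 rose with LPS, beside 27.1% of all genes. They were S100a8, Dcn (0.319 CPM in vector, 3.87 and 3.36 CPM with LPS) and Pecam1 (0.199 CPM, then 0.981 and 0.803 CPM). The Pecam1 call (log2 2.13) was lost by DESeq2 (2.15), by limma-voom (2.06) and with curated transcripts only (2.85). It was also lost without LPS replicate 1 (1.98) or 2 (2.27). The part of these markers in the results was not tested. Fewer cells with a transcript and less of it per cell cannot be told apart in bulk libraries.

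LPS against vector shows how the network stood in activated cells. Among the repressors Mxd1 rose 17.4-fold, Mxi1 1.49-fold and Mnt 1.37-fold, Mxd4 fell 2.5-fold from a low level, and Mxd3 was too scarce to test. The hub Mlx rose 1.89-fold. Myc and Max, the activator and its obligate partner, were not called. In all, 5 of the 7 members tested were called, 4 higher and 1 lower, beside 52.0% of all genes (27.1% higher and 24.9% lower), and nothing is read from that count because the members were chosen with it known. With library totals alone 3 were called higher and 3 lower, and with curated transcripts only 2 higher and 0 lower. The median log2 fold change was 0.45 for the 7 members and −0.01 for all genes tested.

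Mxd1, the repressor that is induced in differentiating myeloid cells, stood at 34.9 CPM in vector, 584 and 631 CPM with LPS, and 575 and 565 CPM with LPS and arctigenin. Every library with LPS lay far above vector, and among these 4 libraries the arctigenin pair lay just below the LPS pair. The log2 fold change was 4.12 ± 0.10 (SE) for LPS against vector, the rank of 179 from the top among 11575 genes. It was −0.09 ± 0.06 for LPS with arctigenin against LPS and was not called there. The curated transcript held most of the counts, 812 in vector and 10328 to 12068 in the others, and a predicted transcript held 63.5 and 261 to 496. Counts of single transcripts, here and below, are not scaled to library size.

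**Figure D1:**
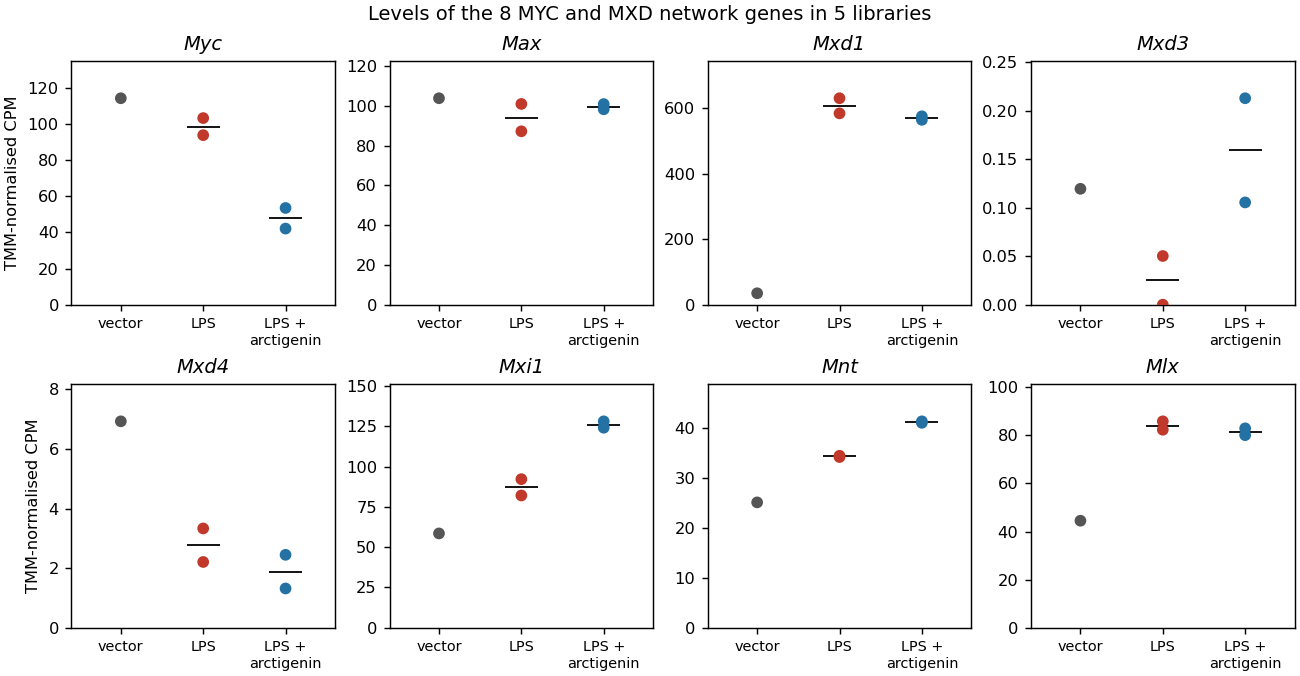
TMM-normalised CPM (vertical axes, which start at 0 and differ in scale) of each of the 8 members in the vector, LPS and LPS with arctigenin libraries. Points are libraries and lines are means of 2. Mxd1 went from 34.9 CPM in vector to 565 CPM or more in the others, Myc stood at 42.1 and 53.5 CPM with arctigenin against 93.8 and 103 CPM with LPS alone, and Mxd3 stayed at 0 to 4 counts.

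Myc, the transcription factor that drives growth and proliferation, stood at 114 CPM in vector, 103 and 93.8 CPM with LPS, and 42.1 and 53.5 CPM with LPS and arctigenin. The LPS libraries lay a little under vector, and both arctigenin libraries lay well under all others. The log2 fold change was −0.21 ± 0.13 (SE) for LPS against vector, not called, and −1.04 ± 0.11 for LPS with arctigenin against LPS, where Myc fell 2.06-fold. Against vector the arctigenin libraries were 2.39-fold lower (log2 −1.26 ± 0.13). Without the first or the second arctigenin library the LPS value of −0.21 was called. It was also called, at −0.47, when libraries were scaled by their totals alone, a scaling that moved the median of all genes by −0.25, so that Myc differed from that median by about as much as before. Under that scaling 2015 genes were called higher and 4598 lower in LPS against vector, in place of 3137 and 2887. In LPS with arctigenin against vector it called 2138 higher and 4751 lower, in place of 3524 and 2979.

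Myc had 4 curated transcripts in the table, in 2 pairs with identical values in every library. Variant 1 held 78.1% of the Myc counts in vector, 76.7% and 77.2% with LPS, and 72.3% and 76.5% with arctigenin. Variant 2 held the remainder, so both variants were lower with arctigenin. Whether reads were divided between identical transcripts or counted for each was not tested. The level of Myc, but not its fold changes, depends on that, and identical transcripts were counted once as an alternative.

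Max, the partner that MYC, MXD and MNT proteins need to bind DNA, stood at 104 CPM in vector, 87.2 and 101 CPM with LPS, and 98.3 and 101 CPM with arctigenin. These values overlapped between the LPS and the arctigenin libraries. The log2 fold change was −0.14 ± 0.10 (SE) with LPS relative to vector, and 0.08 ± 0.08 when arctigenin was added to LPS, neither of them called. The latter was −0.02 without LPS replicate 1, and the former was called, at −0.40, with library totals alone. Variant 2 was the main transcript in each library, at 1510 to 2044 counts. Variant 1 stood at 387 counts in vector, 113 and 199 with LPS, and 132 and 150 with arctigenin, the lower 4 values all from libraries with LPS. These transcript values rest on how shared reads were divided between the Max models, and vector had 1 library, so they are a description only.

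Mlx, the second hub, stood at 44.5 CPM in vector, 85.8 and 82.3 CPM with LPS, and 80.1 and 82.9 CPM with arctigenin. All libraries with LPS lay above vector, and the LPS and arctigenin libraries overlapped. Its log2 fold change was 0.92 ± 0.09 (SE) with LPS relative to vector, and −0.05 ± 0.07 when arctigenin was added, which was not called.

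Mxi1, a repressor that acts like MXD1, stood at 58.5 CPM in vector, 92.2 and 82.1 CPM with LPS, and 128 and 124 CPM with arctigenin. The 3 groups did not overlap and rose in that order. On the log2 scale Mxi1 was higher by 0.57 ± 0.10 (SE) with LPS than in vector, and by 0.53 ± 0.08 more with arctigenin, called in both, or 2.15-fold higher with arctigenin than in vector. With curated transcripts only, neither of the first 2 was called (log2 0.49 and 0.54).

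The 9 transcripts of Mxi1 did not move together. Variants 2, X2 and X4 summed to 949 counts in vector, 1741 and 1578 with LPS, and 2140 and 2141 with arctigenin, or 64.6%, 92.6%, 96.5%, 88.9% and 91.0% of the Mxi1 counts. Variant 1 and the predicted variant X6 summed to 470 counts in vector, 69.5 and 27.2 with LPS, and 188 and 177 with arctigenin, or 32.0%, 3.70%, 1.66%, 7.80% and 7.52%. The first set was higher in each library with LPS, and the second was lower in each and lay between vector and LPS in the arctigenin libraries. The sets were formed after the values were seen, from transcripts with a mean of at least 20 counts. They rest on how shared reads were divided between overlapping models, so they are a description only.

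**Figure D2:**
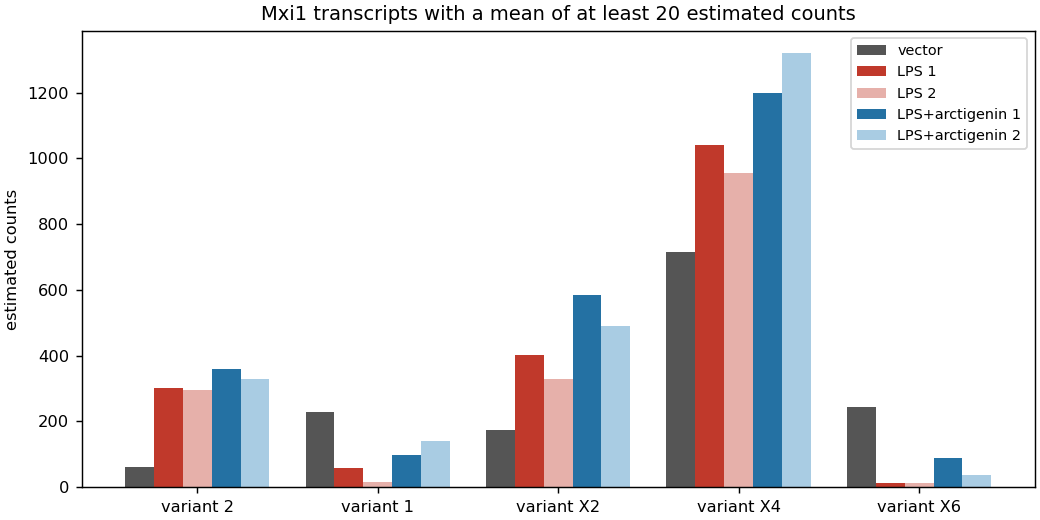
Estimated counts (vertical axis, from 0) of the 5 Mxi1 transcripts with a mean of at least 20 counts, as bars for each of the 5 libraries. The counts are not scaled to library size. Variants 1 and X6 are highest in vector (228 and 242 counts), while variant 2 goes from 60.4 counts in vector to 295 or more in each library with LPS.

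Mnt, a repressor present in cycling and resting cells alike, stood at 25.1 CPM in vector, 34.2 and 34.5 CPM with LPS, and 41.1 and 41.4 CPM with arctigenin. Replicates lay close together, and the groups did not overlap. The log2 fold change was 0.45 ± 0.11 (SE) for LPS against vector, and it was not called with library totals alone (0.20) or curated transcripts only (0.40). For LPS with arctigenin against LPS it was 0.26 ± 0.09, a call lost when any of the 4 libraries was left out (0.26 to 0.27), by DESeq2 (0.26), with library totals alone (0.22) and with curated transcripts only (0.16).

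Mxd4 and Mxd3, the other MXD repressors, were the scarcest members. Mxd4 stood at 6.93 CPM in vector, 3.33 and 2.21 CPM with LPS, and 2.45 and 1.32 CPM with arctigenin, from 174 down to 25 counts. Vector was the highest library, and the LPS and arctigenin libraries overlapped. Its log2 fold change was −1.32 ± 0.38 (SE) for LPS against vector, a call lost without LPS replicate 2 (−1.05), by DESeq2 (−1.33) and with curated transcripts only (−1.31). It was −0.56 ± 0.36 for LPS with arctigenin against LPS, not called. Mxd3, which is best known from dividing cells, had 3 counts in vector, 0 and 1 with LPS, and 4 and 2 with arctigenin. It did not pass the filter on low counts, and no difference was detectable at this depth, where a count of 0 allows up to 3 counts, or 0.147 CPM in that LPS library.

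**Figure D3:**
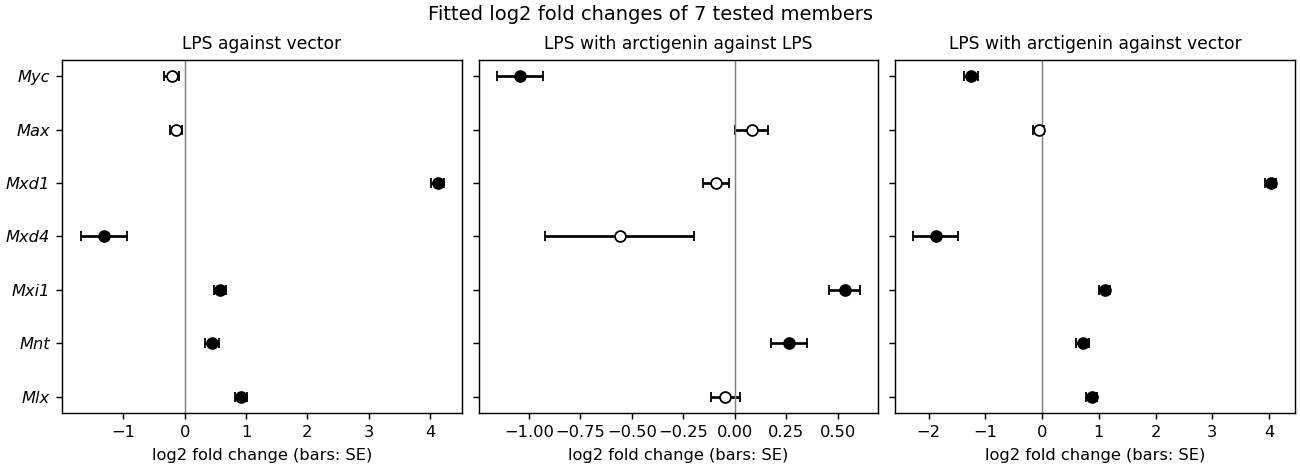
Fitted log2 fold changes (horizontal axes, which differ in range) of the 7 tested members in the 3 comparisons, with SE as bars. Filled points passed an adjusted p of 0.05 in the fit over all genes. Mxd1 stands at 4.12 and 4.03 against vector and at −0.09 between the treated groups, where Myc stands at −1.04.

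The effect of adding arctigenin was read from LPS with arctigenin against LPS. Myc fell 2.06-fold, while Mxi1 rose 1.45-fold and Mnt 1.20-fold, and Mxd1, Mxd4, Max and Mlx were not called. That is 3 of the 7 members tested, 2 higher and 1 lower, beside 44.8% of all genes (22.8% higher and 22.0% lower), again with nothing read from it. Without LPS replicate 1 the count over all genes was 3234 in place of 5180. LPS with arctigenin against vector shares its libraries with the other comparisons. There 6 of the 7 were called, 4 higher and 2 lower, beside 56.2% of all genes (30.4% higher and 25.7% lower), and Max was the exception, at log2 −0.06 ± 0.10 (SE). With library totals alone Max was called too, at −0.35, and all 7 were called.

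Outside the 8 members, the network holds the paralogs Mycn and Mycl, the MAX partner Mga and the MONDO genes Mlxip and Mlxipl. Mycn, whose protein acts like MYC and is best known from embryonic and neural cells, was abundant in this line. It stood at 148 CPM in vector, 43.7 and 40.9 CPM with LPS, and 93.4 and 89.7 CPM with arctigenin. It fell 3.50-fold with LPS (log2 −1.81 ± 0.08, SE, adjusted p = 1.26e-07) and rose 2.16-fold with arctigenin against LPS (log2 1.11 ± 0.07, adjusted p = 4.12e-06). The groups did not overlap, and the arctigenin libraries lay between LPS and vector. Mycn thus rose in the comparison in which Myc fell. Mlxip, the MONDO protein that pairs with MLX, rose 2.16-fold with LPS, from 39.0 CPM in vector to 88.6 and 80.0 CPM (adjusted p = 1.01e-05), beside the 1.89-fold of Mlx, and stood at 83.3 and 82.8 CPM with arctigenin (adjusted p = 0.847). Mga stood at 127 CPM in vector, 111 in both LPS libraries, and 102 and 104 CPM with arctigenin, with an adjusted p of 0.0496 for LPS against vector that was 0.169 and 0.146 without LPS replicate 1 and 2, 0.0679 without a count filter and 0.141 by DESeq2. With curated transcripts only its log2 value was 0.54 in place of −0.20 (0.0941). Mycl had 0 counts throughout and Mlxipl 1 or 2.

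Levels of different genes were compared per kilobase of the longest GENCODE coding transcript. In vector the order was Max (51.8 CPM per kilobase), Myc (48.9), Mlx (22.6), Mxi1 (11.3), Mxd1 (7.48), Mnt (5.48), Mxd4 (1.79) and Mxd3 (0.0901), with no replicate to give its spread. With LPS, Mxd1 led at 130 ± 7.01 CPM per kilobase (SD, n = 2). Max (46.9 ± 4.85), Mlx (42.8 ± 1.26) and Myc (42.1 ± 2.86) followed and did not differ beyond their spread, and Mxi1 (16.9 ± 1.39) and Mnt (7.48 ± 0.0398) came next. With arctigenin the order was Mxd1 (122 ± 1.63), Max (49.7 ± 0.918), Mlx (41.5 ± 1.02), Mxi1 (24.5 ± 0.542), Myc (20.4 ± 3.45) and Mnt (8.98 ± 0.0456). Myc lay below Mxi1 there, in contrast to the other groups, by little more than its own spread.

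The makeup of the mRNA of MAX partners followed from these levels. Mga, also a MAX partner, was left out of these sums and shares. Of the summed level per kilobase of Myc, Mycn, Mxd1, Mxd3, Mxd4, Mxi1 and Mnt, Myc and Mycn together held 79.9% in vector. They held 28.5% and 25.8% in the LPS libraries, and 25.1% and 26.7% in the arctigenin libraries, which overlapped. Mxd1 alone held 5.73% in vector, 59.1% and 63.0% with LPS, and 58.5% and 57.4% with arctigenin. Within the MYC pair, Myc held 46.8% in vector, 73.0% and 72.4% with LPS, and 34.0% and 40.5% with arctigenin. The sum of both MYC genes was 104 CPM per kilobase in vector, 60.5 and 55.4 with LPS, and 53.0 and 56.5 with arctigenin, so the treated groups overlapped in their sum while they differed in which paralog was more abundant. These are shares of mRNA and hold no measure of protein or of dimers. Whether the identical Myc transcripts were each given the same reads was not tested, and these orders, shares and sums depend on it. Counted once, Myc stood at 24.4 CPM per kilobase in vector, 22.1 and 20.1 with LPS, and 8.99 and 11.4 with arctigenin. The sum of both MYC genes was then 79.9 CPM per kilobase in vector, 38.4 and 35.4 with LPS, and 43.9 and 45.0 with arctigenin, so that the treated groups no longer overlapped. Their share of the summed level of the listed genes was 75.3%, then 20.2% and 18.2%, then 21.8% and 22.5%, which did not overlap either.

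**Figure D4:**
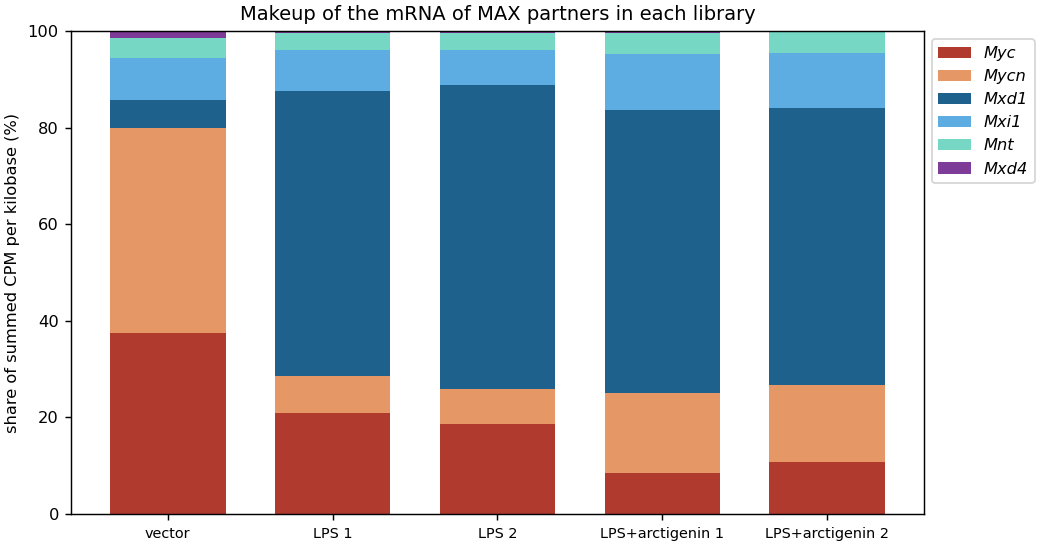
Share (vertical axis, percent) of Myc, Mycn and the MXD and MNT genes in their summed CPM per kilobase in each of the 5 libraries, as stacked bars. The MAX partner Mga is not part of the sum. Myc with Mycn make up 79.9% in vector and 25.1% to 28.5% in the libraries with LPS, and Mxd1 goes from 5.73% to 57.4% or more; Mxd3, at 0 to 0.0760%, is left out of the drawing.

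Genes that MYC is known to activate were lower with LPS. Of 40 such genes 32 fell and 3 rose, with a median log2 fold change of −0.77. The share of all genes called was 52.0% (24.9% lower and 27.1% higher). Gnl3, which encodes nucleostemin, fell 3.63-fold (log2 −1.86 ± 0.11, SE, adjusted p = 6.74e-07), from 113 CPM in vector to 28.8 and 33.2 CPM. The ribosome maturation gene Ppan fell 3.39-fold (adjusted p = 4.98e-06), Dkc1, which modifies ribosomal RNA, 3.34-fold (2.13e-06), and the DNA repair endonuclease Apex1 3.31-fold (3.24e-06). Odc1, the first enzyme of polyamine synthesis and a standard MYC target, instead rose from 1792 CPM to 3375 and 3849 CPM (log2 1.01, adjusted p = 1.06e-05). Hk2 rose 2.27-fold (adjusted p = 3.42e-06) and Tfrc 1.21-fold (0.00964). These 3 genes were named after their values were seen.

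With arctigenin, where Myc itself was lower and Mycn higher, 21 of these 40 genes rose and 5 fell against LPS. Their median log2 fold change was 0.31, and 44.8% of all genes were called (22.8% higher and 22.0% lower). Mybbp1a, a nucleolar protein, rose 2.21-fold (log2 1.14 ± 0.07, SE, adjusted p = 1.72e-06), from 102 and 104 CPM to 237 and 218 CPM. Dkc1 rose 2.09-fold (adjusted p = 5.07e-05), nucleolin (Ncl) 1.82-fold (7.5e-06) and Cad, which starts pyrimidine synthesis, 1.82-fold (5.61e-05). The Dkc1 call was lost with curated transcripts only (0.262). Gnl3 and Ppan stood at log2 −0.26 and −0.36 and were not called, so the genes with the largest falls under LPS did not all rise with arctigenin. Against vector 26 of the 40 were lower and 7 higher with arctigenin, beside 25.7% of all genes lower and 30.4% higher.

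Genes of cell division moved in the same sense as these targets in LPS against vector and in LPS with arctigenin against LPS. They did not in LPS with arctigenin against vector. Of 20 proliferation genes 18 fell and 1 rose with LPS (median −1.01), and 18 rose and 1 fell with arctigenin against LPS (median 1.42). Of all genes 24.9% were lower with LPS and 22.8% higher with arctigenin against LPS. Against vector, 11 of the 20 were higher and 4 lower with arctigenin (median 0.32). The activated targets there were 7 higher and 26 lower (median −0.53), beside 30.4% of all genes higher and 25.7% lower. The summed level of the 20 proliferation genes was 1512 CPM in vector, 802 and 816 CPM with LPS, and 2125 and 1944 CPM with arctigenin. The libraries with the lowest Myc were thus those with the highest proliferation sum, and Mxd3 stayed near 0 in them. The part of cycling in the levels of Myc, Mycn or the targets was not tested.

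Of 14 MYC cofactors 5 rose and 6 fell with LPS (median −0.12), beside 27.1% of all genes higher and 24.9% lower. With arctigenin against LPS 8 rose and 1 fell (median 0.25), beside 22.8% higher and 22.0% lower. Paf1, a subunit of the elongation complex PAF, rose 2.41-fold with LPS (adjusted p = 1.34e-06), from 61.1 to 146 and 149 CPM, and Trrap, the scaffold of MYC's acetyltransferase complexes, rose 1.69-fold (0.000308). The helicases Ruvbl2 and Ruvbl1 fell 1.91-fold (3.76e-05) and 1.66-fold (0.000323) with LPS and rose 1.75-fold (6.68e-05) and 1.99-fold (2.61e-05) with arctigenin. With curated transcripts only, the LPS value of Ruvbl2 was 0.41 on the log2 scale in place of −0.94, its arctigenin value was 0.00251, and neither was called (0.694 and 0.998). The same setting ended the call of Trrap (0.0805). The acetyltransferase Kat2a rose 1.91-fold (0.000126) with arctigenin.

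Of 12 genes of the SIN3 and NCOR corepressors, through which MXD proteins act, 3 rose and 5 fell with LPS (median −0.19). With arctigenin against LPS 5 rose and 0 fell (median 0.17), or 3 rose without LPS replicate 2. The shares called were 66.7% and 41.7%, beside 52.0% and 44.8% of all genes. Ncor1 rose 1.48-fold with LPS (adjusted p = 0.000135). The histone-binding subunit Rbbp7 fell 1.58-fold with LPS (0.000174) and rose 1.59-fold with arctigenin (8.52e-05), and Sap18 fell 2.37-fold (0.00611, and 0.0509 without LPS replicate 1 and 0.0662 with curated transcripts only) and rose 3.52-fold (0.000328) at 1.91 to 8.91 CPM. Sin3a, the scaffold that binds MXD proteins directly, rose 1.45-fold with arctigenin (0.00014), from 81.0 and 84.4 CPM to 119 and 121 CPM. Rbbp4 rose 1.23-fold (0.00603, and 0.0792 without LPS replicate 2).

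**Figure D5:**
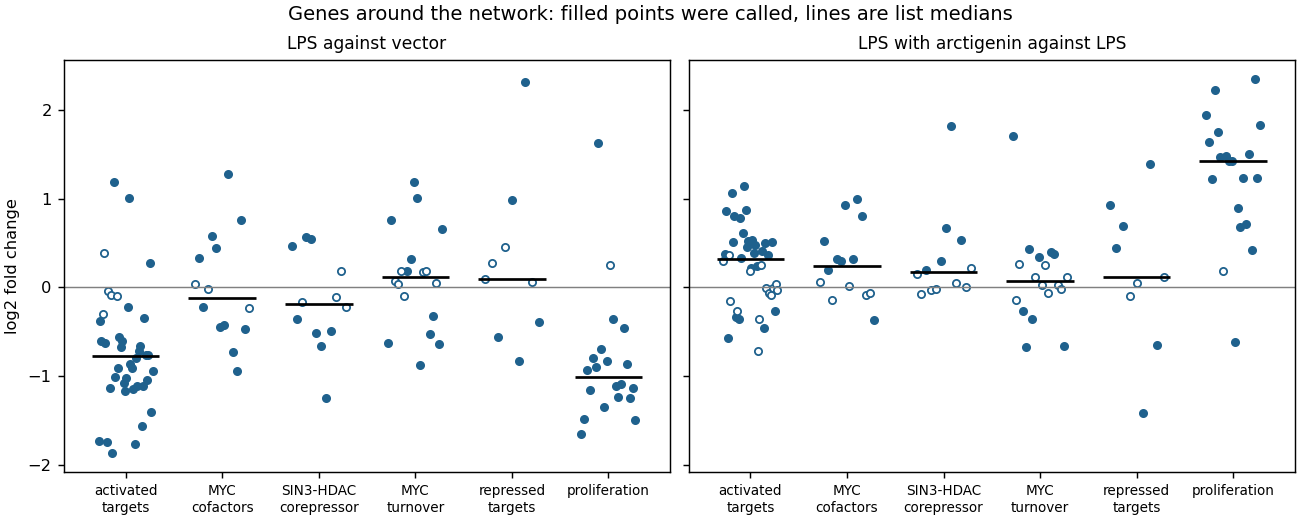
Log2 fold changes (vertical axis) of the tested genes of 6 lists in LPS against vector and in LPS with arctigenin against LPS, which share the LPS libraries. Filled points were called, lines are medians, and positions within a list carry no value; the medians of the activated targets are −0.77 and 0.31 and those of the proliferation genes −1.01 and 1.42.

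Among 18 genes whose products act on MYC protein, 6 rose and 5 fell with LPS (median 0.12), or 4 rose and 6 fell with library totals alone. With arctigenin against LPS 5 rose and 4 fell (median 0.07), or 3 rose and 2 fell without LPS replicate 1. The shares called, 61.1% and 50%, were near the 52.0% and 44.8% of all genes. The kinases Pim1 and Pim2 rose 2.28-fold (adjusted p = 2.82e-06) and 2.01-fold (0.000463) with LPS, and Btrc, a ubiquitin ligase subunit, rose 1.69-fold (0.00036). With arctigenin the mitotic kinase Aurka, which stabilises N-MYC protein, rose 3.25-fold (1.49e-06), from 24.2 and 23.4 CPM to 80.9 and 73.7 CPM. Fbxw7, the ligase subunit that marks MYC for degradation, fell 1.59-fold (0.00736, and 0.0834 without LPS replicate 1), the deubiquitinase Usp36 fell 1.57-fold (0.00275), and Gsk3a, of the GSK3 kinases that phosphorylate MYC, rose 1.35-fold (0.000512). With curated transcripts only the calls of Btrc (0.125), Fbxw7 (0.0962), Usp36 (0.120) and Gsk3a (0.0923) were lost.

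Of 10 genes that MYC is known to repress, 9 were tested. With LPS 2 rose and 3 fell (median 0.09), and with arctigenin against LPS 4 rose and 2 fell (median 0.12). The share called with LPS, 55.6%, was near the 52.0% of all genes, and that with arctigenin was 66.7% beside 44.8%. Gadd45g, a stress-induced growth arrest gene, rose 4.94-fold with LPS (adjusted p = 0.000103) and a further 2.61-fold with arctigenin (0.000214), from 1.67 CPM in vector to 22.1 and 21.1 CPM. The cyclin-dependent kinase inhibitor Cdkn1a stood at 338 CPM in vector and 365 and 355 CPM with LPS, and rose 1.90-fold with arctigenin to 725 and 643 CPM (7.34e-06). Cdkn2c fell 1.48-fold with LPS (0.0111, and 0.0513 and 0.0559 without LPS replicate 1 and 2, 0.0758 by DESeq2 and 0.0714 with curated transcripts only) and rose 1.61-fold with arctigenin (0.00174). Gadd45a fell in both comparisons, 1.78-fold (0.00395, and 0.0669 with curated transcripts only) and 2.66-fold (0.000208), and the ferritin gene Fth1 rose 1.98-fold with LPS (2.37e-06).

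The glucose-responsive targets of MONDO and MLX, Txnip and Arrdc4, were lowest with arctigenin. Txnip, an inhibitor of glucose uptake, stood at 1316 CPM in vector, 390 and 321 CPM with LPS, and 109 CPM in both arctigenin libraries. It fell 3.70-fold with LPS (adjusted p = 7.6e-07) and 3.26-fold with arctigenin against LPS (2.69e-06). Arrdc4 stood at 58.1 CPM in vector, 53.0 and 41.9 CPM with LPS, and 10.6 and 12.0 CPM with arctigenin, where it fell 4.18-fold (5.08e-06). Its LPS value of −0.29 on the log2 scale was not called (0.115), but was −0.47 without LPS replicate 1 (0.0417) and −0.54 with library totals alone (0.0116). The levels of Mlx and Mlxip were both higher with LPS than in vector and were not called between LPS and arctigenin, so the transcripts of the hub and of its targets did not follow the same order of groups. The third listed target, Pklr, had 0 counts.

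Other factors that bind E-boxes went both ways. Of 12 listed, 6 rose and 1 fell with LPS (median 0.15), but 4 rose and 5 fell with library totals alone. With arctigenin against LPS 2 rose and 5 fell (median −0.20). The shares called, 58.3% in both, stand beside 52.0% and 44.8% of all genes. Bhlhe41 and Bhlhe40, repressors of the clock, rose 3.39-fold (adjusted p = 0.000105) and 2.13-fold (1.88e-05) with LPS and fell 1.90-fold (0.00153) and 1.43-fold (0.00082) with arctigenin. Mitf rose 1.74-fold (2.89e-05) and fell 1.40-fold (0.000268), but with curated transcripts only neither was called (0.834 and 0.274) and its LPS value turned from 0.80 to −0.15 on the log2 scale. Its relative Tfec fell 1.61-fold with arctigenin (0.00169, and 0.0594 with curated transcripts only), and the clock activator Arntl fell 2.55-fold with LPS (2.11e-06).

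The genes with the pattern most like that of Myc were sought by the distance between log2 CPM values centred on each gene's mean over the 5 libraries. The 5 nearest were Tfcp2l1 (distance 0.0928), Cdk18 (0.108), Fam19a2 (0.111), Arhgap25 (0.135) and Slc6a12 (0.150), where the median over all candidates was 1.42. Tfcp2l1 stood at 95.4 CPM in vector, 91.6 and 82.7 CPM with LPS, and 36.0 and 48.5 CPM with arctigenin, the order seen for Myc. For Mxd1 the nearest were Adora2b (0.229), Cfb (0.273), Gbp7 (0.345), Il27 (0.349) and Tmem2 (0.422), against a median of 3.66. Adora2b went from 3.86 CPM in vector to between 60.8 and 69.6 CPM in the other libraries. The distances, over 5 libraries and 9179 candidate genes, are a description.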

How the data were processed

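RNA sequencing libraries of RAW264.7 cells were compared in 3 groups (1 vector, 2 LPS, 2 LPS with arctigenin), as given by the sample titles. The deposited values were expected counts (estimated counts that need not be whole) for 75959 RefSeq transcripts. The tools listed, without version or order, are HTSeq, DESeq, Cufflinks, Trimmomatic and HISAT2, and the build is mm9, per the submitters' processing notes. The tool that made the decimals, and the use of strand, are not given in the sources used here. Transcript values were added up within each symbol and then rounded. All sample columns had a group and all rows a gene symbol.

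The test was edgeR's (4.0.16, R 4.3.3; TMM, filterByExpr at counts of at least 10 and totals of at least 15, robust quasi-likelihood fit, group as the only term, 2 residual degrees of freedom), which kept 11575 genes. The script was tested on simulated data. Each SE is the fitted log2 difference divided by the root of its F statistic. The members and lists were chosen with earlier results of these data known. Intervals of counts and floors cover counting error only. Genes named beside the members are the called genes (up to 4) that changed most in a list in each comparison, lists of 5 or fewer whole (a few genes that this rule names are not reported here), and the 5 genes nearest in pattern to Myc and Mxd1 with a mean log2 CPM (prior count 2) of at least 2. Alternatives were RLE factors, library totals, no filter, DESeq2 1.42.0, limma-voom (limma 3.58.1), curated transcripts, each replicate left out, a replicate block and, added after seeing the data, identical transcripts counted once (fold changes and partner shares).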

Additional observations from a re-analysis of the deposited data

How the results depend on the processing

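Of 238 member values under the alternatives, 217 kept their direction and their side of the threshold, 15 lost the call, 5 gained it and 1 changed sign (Max, LPS with arctigenin against LPS, −0.0189 on the log2 scale without LPS replicate 1, and up to 0.19 with another library left out). Summing curated transcripts only moved the most counts of calls, to 3211, 2532 and 3815 genes for LPS against vector, LPS with arctigenin against LPS, and LPS with arctigenin against vector, and to 2 and 1 members for the first pair. For LPS against vector it called 5 corepressor, 6 cofactor, 7 turnover and 3 repressed genes. For LPS with arctigenin against LPS it called 3 cofactor, 4 turnover, 15 activated, 3 E-box and 3 macrophage genes. The cause was not tested. With library totals alone 2 MONDO targets were called for LPS against vector. Leaving out each replicate gave 3234 to 5180 genes for LPS with arctigenin against LPS, where the corepressor list had 3 to 4 calls and the turnover list 5 to 9, and 1 to 2 MONDO targets for LPS against vector.

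With the replicate number as a block, LPS with arctigenin against LPS gave 5320 genes called, against 5270 in the same 4 libraries without it, and 3 members as before. Same-numbered libraries did not deviate together (correlation of deviations −0.00842). That value rests on a single difference within each group. It cannot tell whether same-numbered libraries shared a culture or a batch, which is not labelled. Depth limits Mxd3, at 0 to 4 counts, and Mxd4, at 25 to 174. The single vector library limits both comparisons with it.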
